A study of Mus musculus with 18 samples.

Results

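Pla2g4e and Art2a-ps are 2 of the 24391 genes measured in E2-10HA cells, a T cell hybridoma of the mouse, and both were nearly silent once RBPJ wild type had been put back into cells depleted of RBPJ. They were chosen by their normalized values: close to 0 with RBPJ wild type, and well above 0 with the empty vector and with the RBPJ F261A/A284V mutant. Those contrasts against RBPJ wild type are therefore given as a description, with no test. The difference between hairpin and scramble in the separate knockdown experiment, and that between mutant and empty vector, were tested. The rule of choice also covered the levels in scramble and hairpin cells, though not their difference. The knockdown tests are therefore not wholly free of it.

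The rescue experiment compared 3 groups of RBPJ-depleted cells with 4 libraries each: cells with the empty pMY-Bio vector, cells with Flag-tagged mouse RBPJ wild type (WT), and cells with Flag-tagged mouse RBPJ F261A/A284V, all under blasticidin. The knockdown experiment compared cells carrying a scramble hairpin with cells carrying 1 hairpin against L3MBTL3, 3 libraries each, both in the pLKO.1 vector under puromycin. All 18 libraries came from ribosome-depleted, strand-marked total RNA of this 1 line, and the labels do not say whether replicates were separate cultures. P-values therefore measure only the spread between these libraries, which may be technical.

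RBPJ is the DNA-binding factor of the Notch pathway: with a Notch intracellular domain it switches target genes on, and without one it can recruit corepressors that keep them off. One known partner is L3MBTL3, a reader of methylated lysines. Pla2g4e encodes cPLA2 epsilon, a calcium-dependent enzyme of the cytosolic phospholipase A2 family that moves an acyl chain between phospholipids to make N-acyl-phosphatidylethanolamines, the precursors of N-acylethanolamines such as anandamide. Art2a-ps and its neighbour Art2b are mouse genes for ADP-ribosyltransferase 2, an enzyme anchored on the surface of T cells that uses extracellular NAD to ADP-ribosylate surface proteins, the ATP-gated channel P2X7 among them. In some mouse strains the Art2a copy holds a premature stop codon and makes no enzyme, hence its name as a pseudogene.

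The coding sequences of Art2a-ps and Art2b in the GENCODE annotation of GRCm38 aligned over 870 columns with 755 identical bases (86.8%), 109 mismatches and 6 gap columns. The first stop codon of Art2a-ps came at codon 161, against codon 290 in Art2b, through the substitution C481T (Art2b base first, counted from 1 at the start of the Art2b coding sequence). A window around that stop, Art2b coding bases 433 to 531, is shown because it holds 20 of the mismatches by which reads of the pair can be told apart, here in capitals.
Art2a-ps: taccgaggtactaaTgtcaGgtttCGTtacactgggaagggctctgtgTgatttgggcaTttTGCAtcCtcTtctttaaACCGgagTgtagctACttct
Art2b: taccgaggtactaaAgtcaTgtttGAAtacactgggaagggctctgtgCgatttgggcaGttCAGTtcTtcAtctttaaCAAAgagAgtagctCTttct

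Elsewhere the pair had 3 identical runs of at least 50 bases. The longest, 125 bases at Art2b coding bases 94 to 218, is shown because a read within it fits both genes.
Art2a-ps and Art2b: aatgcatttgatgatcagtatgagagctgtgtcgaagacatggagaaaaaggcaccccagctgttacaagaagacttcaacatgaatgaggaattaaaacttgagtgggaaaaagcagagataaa
The sources used here do not state how reads matching both were counted, so the split between Art2a-ps and Art2b is uncertain. Art2b is therefore given beside Art2a-ps throughout.

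A deposited value is a gene's read count divided by 1 size factor per library, and the reads behind each value could be recovered. Libraries held 4882485 to 6129134 reads in the knockdown table, 5923799 to 7921533 in replicates 1 and 2 of the rescue table and 3553505 to 4239479 in its replicates 3 and 4, which stood apart from replicates 1 and 2. Within 3 pairs of libraries the difference was smaller than sampling noise: replicates 1 and 2 of RBPJ WT, the same 2 replicates of the empty vector, and mutant replicates 3 and 4. Such a pair enters the means and SDs below as a single sample. Means over 3 samples therefore weight the 2 sets of replicates differently in the mutant than in the other 2 rescue groups. Rbpj itself read 255 to 317 with the empty vector, 627 to 818 with RBPJ WT and 685 to 922 with the mutant. In the knockdown table, normalized separately, Rbpj read 1613 to 2160 in scramble and 1493 to 1714 with the hairpin. L3mbtl3 did not separate the knockdown groups: 352 to 467 in scramble against 370 to 394 in those labelled L3MBTL3 shRNA (adjusted p = 0.402, limma), and scramble replicate 3 held the lowest value, so every direction given for the hairpin is that of the labels. Of 12 T cell markers, 11 averaged at least 10 in both tables. Of 6 B cell markers, 5 averaged under 1, and their summed value did not exceed 3.69 in any library.

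Pla2g4e was detected in all 8 libraries without RBPJ WT and hardly in the 4 with it. With the empty vector its normalized values in replicates 1 to 4 were 26.9, 31.4, 64.3 and 50.4, from 41, 46, 47 and 33 reads. With F261A/A284V they were 8.01, 5.71, 24.6 and 27.9, from 9, 9, 16 and 19 reads. With RBPJ WT they were 0.682, 0, 1.27 and 0, which is 1 read in replicate 1, 1 in replicate 3 and none in the other two. No RBPJ WT library reached the lowest library of either other group, a gap for which the gene was chosen.

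The means were 48 ± 17.7 with the empty vector, 13.3 ± 11.3 with the mutant and 0.538 ± 0.660 with RBPJ WT (SD, n = 3 samples each). Over all 4 libraries they were 43.3, 16.6 and 0.489, with a smaller gap between empty vector and mutant. Summed over the 4 libraries, 167 empty vector reads stood against 2 RBPJ WT reads, a depth-corrected ratio of 86.6 (exact 95% interval 23.6 to 721). For the mutant, 53 reads stood against the same 2, a ratio of 29.8 (7.87 to 253). These intervals cover counting error only. The same values chose the gene, so the ratios may be overstated and the intervals are not a test. In both sets of replicates the order of the groups was the same: RBPJ WT minus empty vector was -4.53 in replicates 1 and 2 and -5.26 in replicates 3 and 4 on the log2(value + 1) scale, and mutant minus RBPJ WT was 2.58 and 4.17. That scale understates differences of genes this low. In bulk RNA, fewer cells with the transcript and less transcript per cell cannot be told apart.

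**Figure D1:**
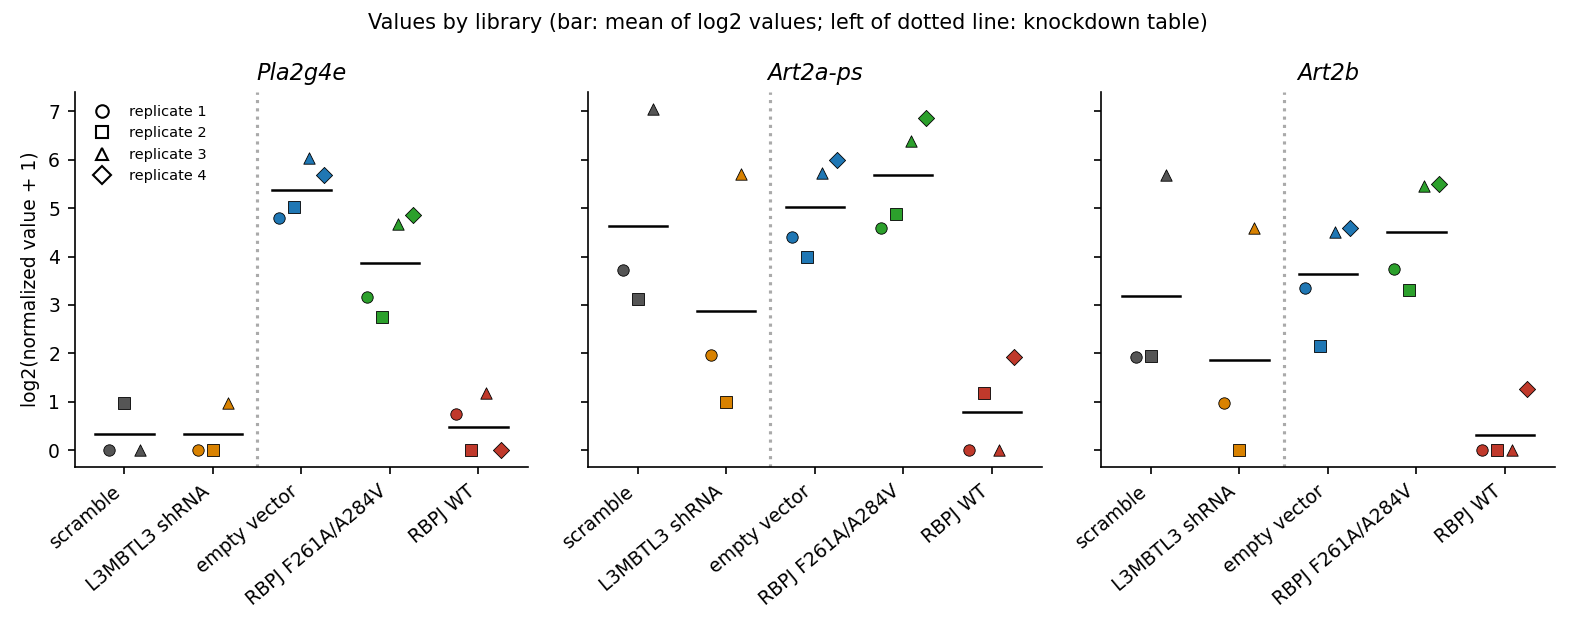
Normalized values of Pla2g4e, Art2a-ps and Art2b in all 18 libraries on a log2(value + 1) axis, with 1 point per library, the point shape giving the replicate number and the bar the mean of the log2 values. RBPJ WT libraries lie at the bottom for each gene, and scramble and L3MBTL3 shRNA libraries lie there as well for Pla2g4e but not for Art2a-ps.

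Art2a-ps had the same low level with RBPJ WT, but its levels in the other 2 groups were ordered differently. Its normalized values with the empty vector were 20.3, 15, 52.0 and 62.7 in replicates 1 to 4, from 31, 22, 38 and 41 reads. With F261A/A284V they were 23.1, 28.5, 83.2 and 116, from 26, 45, 54 and 79 reads. With RBPJ WT they were 0, 1.27, 0 and 2.81, which is 2 reads in replicate 2, 2 in replicate 4 and none in the other two. As for Pla2g4e, the RBPJ WT libraries did not overlap those of either other group, whereas empty vector and mutant libraries overlapped. Art2a-ps too was chosen for the gap to RBPJ WT, so that lack of overlap is a description only.

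The means of Art2a-ps were 44.1 ± 23.5 with the empty vector, 50.4 ± 42.7 with the mutant and 1.15 ± 1.47 with RBPJ WT (SD, n = 3 samples each). Over all 4 libraries they were 37.5, 62.7 and 1.02, with a larger gap between empty vector and mutant. Its 132 empty vector reads against 4 RBPJ WT reads gave a depth-corrected ratio of 34.2 (exact 95% interval 13.1 to 128), and its 204 mutant reads a ratio of 57.4 (22.1 to 213). The limits given for the intervals of Pla2g4e hold here too. On the log2(value + 1) scale, RBPJ WT minus empty vector was -3.62 in replicates 1 and 2 and -4.90 in replicates 3 and 4. Mutant minus RBPJ WT was 4.15 and 5.67 in the same sets.

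Art2b, the intact copy, followed Art2a-ps at a lower level. Its values were 9.18, 3.41, 21.9 and 22.9 with the empty vector and 12.5, 8.88, 43.1 and 44.1 with the mutant. With RBPJ WT it had a single read, in replicate 4 (a value of 1.41), and 0 in the others. Art2b took 18.5% to 35.0% of the reads of the pair in the 10 libraries with at least 20 such reads. The share was 18.5% to 31.1% with the empty vector, 23.7% to 35.0% with the mutant, 27.7% in scramble replicate 3 and 31.2% in L3MBTL3 shRNA replicate 3, so the counted split was similar wherever the pair was well covered.

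Both genes were higher in rescue replicates 3 and 4 than in replicates 1 and 2. The mean of Pla2g4e in replicates 3 and 4 was 1.97 times that in replicates 1 and 2 with the empty vector and 3.83 times with the mutant. For Art2a-ps the same ratios were 3.25 and 3.86, and for Art2b 3.56 and 4.09. The ratio of Pla2g4e to Art2a-ps values ranged from 0.805 to 2.09 in the empty vector libraries and from 0.200 to 0.346 in the mutant libraries, without overlap. The difference between those ratios was noticed in the data and is given without a test.

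Mutant and empty vector were then compared directly, in a fit of log2(value + 1) over all 12 rescue libraries (limma). The choice of both genes used each of these groups against RBPJ WT, so the test is not wholly free of the rule. Of 11691 genes tested, 2 (0.0171%) were called between mutant and empty vector at an adjusted p under 0.05, and neither Pla2g4e nor Art2a-ps was among them. Pla2g4e was lower with the mutant by a log2 difference of -1.52 (SE 0.508, limma unadjusted p = 0.0115, adjusted p = 1). It was lower in both sets of replicates, by -1.95 in replicates 1 and 2 and -1.09 in replicates 3 and 4, and every mutant library lay below its same-numbered empty vector library. Blocking on replicate number gave a limma adjusted p of 0.0546, in a fit that called 76 genes (0.65%), and with a term for the 2 sets of replicates it was 0.0508, still above the threshold. An exact 2-sided permutation test of 4 libraries against 4 gave p = 0.0571, where 0.0286 is the smallest possible. Single libraries overlapped, the lowest empty vector library at 26.9 and the highest mutant library at 27.9. With near-identical libraries averaged, the 3 mutant and 3 empty vector samples did not overlap, and the exact permutation p of 0.1 was the smallest possible. That lack of overlap came from the averaging, which merged the low replicates 1 and 2 of the empty vector but the high replicates 3 and 4 of the mutant.

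For Art2a-ps the mutant lay above the empty vector by a log2 difference of 0.65 (SE 0.646, limma adjusted p = 1; 0.501 with the block), which is about the size of its standard error. The differences were 0.53 in replicates 1 and 2 and 0.77 in replicates 3 and 4, and the exact permutation p over 4 and 4 libraries was 0.4. Art2b gave 0.86 (SE 0.649, limma adjusted p = 1; 0.392 with the block). The mutant means thus lay on opposite sides of the empty vector for the 2 genes, and neither difference passed a threshold.

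In the knockdown experiment Pla2g4e was at the detection floor in both groups, while Art2a-ps was expressed. Pla2g4e had 1 read in scramble replicate 2 (a value of 0.958), 1 in L3MBTL3 shRNA replicate 3 (0.960) and none in the other 4 libraries. Pooled over 3 libraries, that is 0.342 in scramble (exact 95% interval 0.00865 to 1.90) and 0.323 with the hairpin (0.00816 to 1.80), the same range as the 0.441 of RBPJ WT cells (0.0534 to 1.59). Both knockdown groups lie under the floor of 3 reads, so no fold is given. The exact permutation p was 1, with 0.1 the smallest possible for 3 against 3. A change of Pla2g4e with the hairpin was not detectable at this depth.

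In RPM, reads scaled to each library's total with no size factor, Pla2g4e averaged 8.15 with the empty vector, 3.07 with the mutant, 0.0924 with RBPJ WT, 0.0559 in scramble and 0.0552 with the hairpin. Its last 3 levels rest on 1 or 2 reads each and do not differ beyond counting error. Art2a-ps averaged 11.6 with the mutant, 8.46 in scramble, 7.0 with the empty vector, 3.15 with the hairpin and 0.191 with RBPJ WT. Groups that neighbour each other in that order overlapped in their libraries. The 2 experiments were normalized separately and differ in vector and selection, so an order across them is a description.

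Art2a-ps varied more between libraries of a knockdown group than between the groups. Its normalized values in replicates 1, 2 and 3 were 12.2, 7.67 and 131.5 in scramble, from 13, 8 and 107 reads, against 2.88, 0.981 and 50.9 with the hairpin, from 3, 1 and 53 reads. Replicate 3 of each group was the high library, and at each replicate number the hairpin library was the lower one. The means were 50.4 ± 70.2 in scramble and 18.2 ± 28.3 with the hairpin (SD, n = 3 each), and each SD was larger than its mean.

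Without pairing, the log2 difference of Art2a-ps was -1.75 (SE 1.33, limma adjusted p = 0.425), in a comparison that called 385 of 11586 genes (3.32%) and 129 (1.11%) downward. The exact permutation p was 0.4. With the replicate number as a block, Art2a-ps fell by 1.75 on the log2 scale (SE 0.300, limma adjusted p = 0.00211), in a fit that called 2575 genes (22.2%), 1009 of them downward (8.71%). The differences within replicates 1, 2 and 3 were -1.76, -2.13 and -1.35. Replicate 3 stood apart from replicates 1 and 2 across genes, and with it left out of both groups the difference was -1.95 (limma adjusted p = 0.0409 without the block, 0.00794 with it). Those 2 fits called 16.6% and 27.4% of all genes, and the difference there rests on 13 and 8 scramble reads against 3 and 1. With the block it also passed without replicate 1 (log2 difference -1.74, limma adjusted p = 0.000454) and without replicate 2 (-1.56, limma adjusted p = 0.000145). These fits called 13.2% and 19.9% of all genes. With so few libraries left, the spread is poorly estimated and these passes add little. Over every alternative of this comparison, the adjusted p ranged from 0.000145 to 0.816.

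Art2b was too low in the knockdown table to pass the filter on low values. It had 3, 3 and 41 reads in scramble (values 2.81, 2.87 and 50.4) and 1, 0 and 24 with the hairpin (0.961, 0 and 23.0). It was lower with the hairpin in each of the 3 replicate numbers, and replicate 3 was again the high one.

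**Figure D2:**
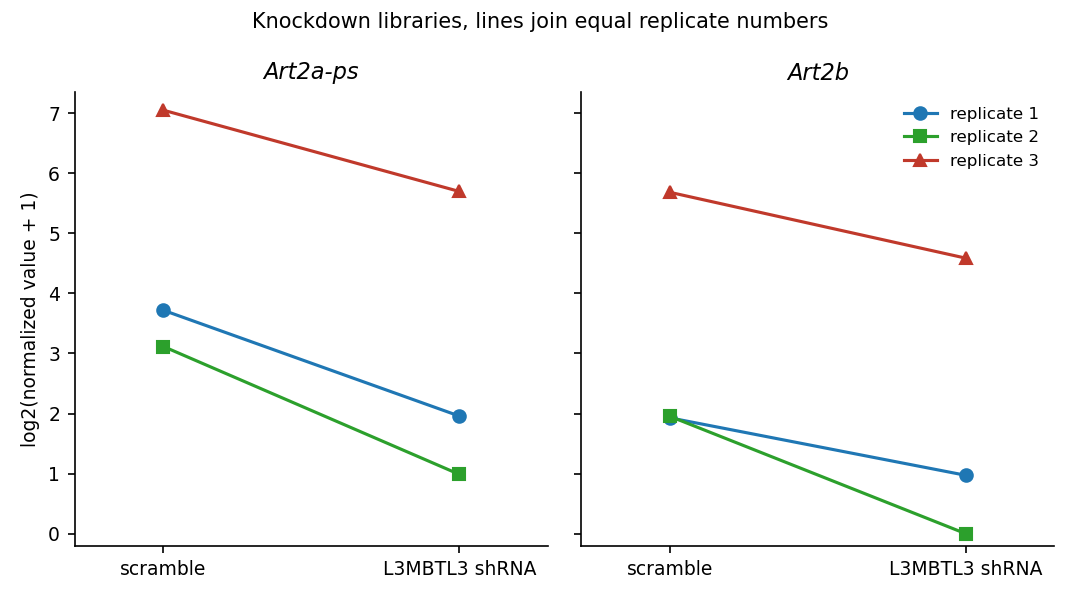
Art2a-ps and Art2b in the 6 knockdown libraries on a log2(value + 1) axis, with lines joining libraries of the same replicate number. All 6 lines slope down from scramble to the libraries labelled L3MBTL3 shRNA, and replicate 3 starts far above the others, at 131.5 for Art2a-ps and 50.4 for Art2b.

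Near silence with RBPJ WT was rare. Of 11397 genes whose empty vector and mutant means were both at least 10, 10 had an RBPJ WT mean of at most 10% of both. By the larger of the 2 percentages these were Art2b (2.45%), Art2a-ps (2.72%), Pla2g4e (2.95%) and then 7 genes of the Gimap family, GTPases of lymphocytes encoded side by side in a gene cluster: Gimap8 (4.69%), Gimap6 (5.53%), Gimap4 (5.61%), Gimap3 (7.48%), Gimap5 (7.83%), Gimap1 (8.42%) and Gimap7 (9.87%). Just outside were Gzmb, the gene of the killer protease granzyme B (14.3%), the T cell surface receptor gene Cd6 (20.5%) and the lysosomal protease gene Lgmn (22.3%). Relative to the empty vector alone Pla2g4e had the lowest value, with 1.13% left against 2.45% for Art2b and 2.72% for Art2a-ps. The RBPJ WT levels of these 3 rest on 2, 1 and 4 reads and the intervals of their ratios overlap (23.6 to 721 for Pla2g4e, 8.89 to 2090 for Art2b, 13.1 to 128 for Art2a-ps), so their order is within counting error. These percentages use the values that chose the genes and carry no test.

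**Figure D3:**
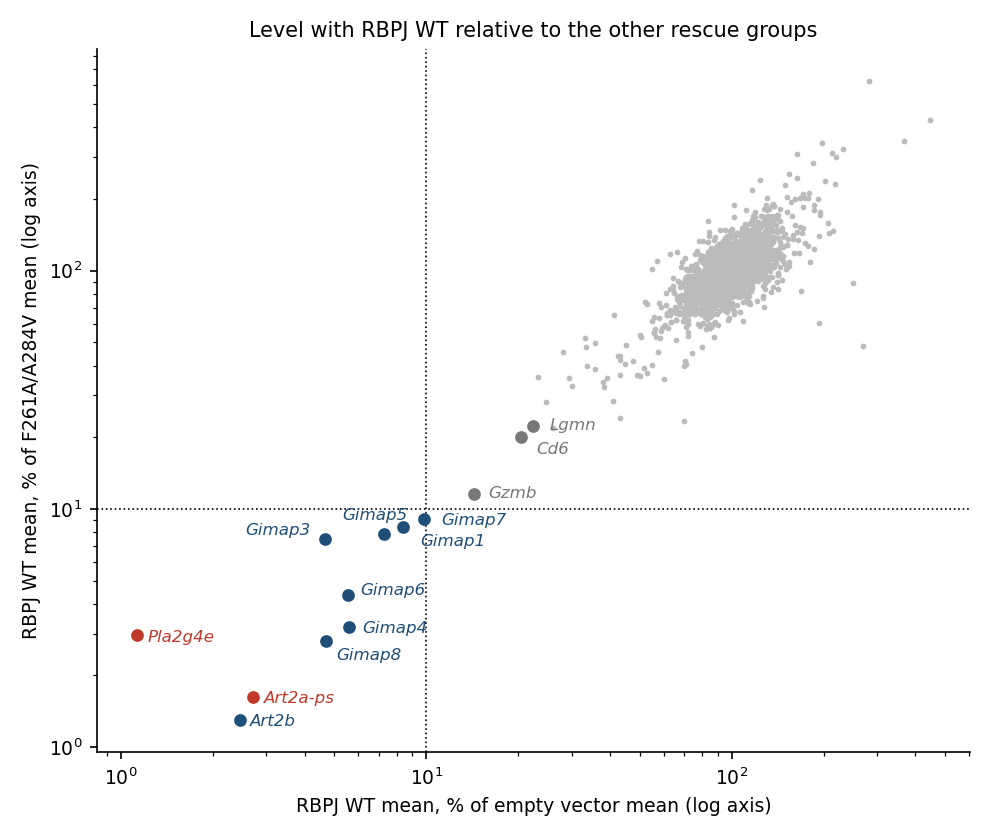
RBPJ WT mean as a percentage of the empty vector mean (x axis) and of the F261A/A284V mean (y axis), both log axes, for genes with both means at least 10 and an RBPJ WT mean above 0; dotted lines mark 10%. Pla2g4e, Art2a-ps and Art2b lie at the lower left, followed by 7 Gimap genes.

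Among those 10 genes Pla2g4e alone averaged under 1 in scramble cells (0.319, from 1 read, against 43.3 with the empty vector). Art2a-ps (50.4) and Art2b (18.7) had scramble means above their empty vector means of 37.5 and 14.4 over the 4 libraries. The scramble means of the Gimap genes ran from 2.50 for Gimap3 to 154 for Gimap1, and their empty vector means were 1.88 to 10.7 times as high. Lgmn, just outside the limit, was also low in scramble, at 1.89 against 387 with the empty vector. Unlike Pla2g4e it rose with the hairpin, to a mean of 26.5 (log2 difference 3.36, limma adjusted p = 0.0379). These comparisons cross 2 tables that were normalized separately.

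The genes whose profiles over the 12 rescue libraries came closest to that of Pla2g4e were Gimap1, Gimap6, Gimap7, Gimap3 and Gzmb. Likeness was measured as the root mean square difference of log2(value + 1) after each gene's mean was taken off, which was 0.846, 0.855, 0.889, 0.955 and 1.03 for these genes against a median of 2.16 over all genes tested. For Art2a-ps they were Art2b (0.549), Gimap8 (0.759), Gimap6 (0.782), Gimap4 (0.912) and Gimap1 (0.916), against a median of 2.35. The profiles include the drop with RBPJ WT that chose the 2 genes. Other genes with a large drop therefore come out nearest, and the gap to the median is a description only. Gimap8, like Art2a-ps, was higher with the mutant than with the empty vector in the means, 132 against 78.4 (limma adjusted p = 1; 0.198 with the block).

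The cytosolic phospholipase A2 relatives of Pla2g4e were either low or, for Pla2g4b, at like levels in the rescue groups. Of the 6 genes of the cytosolic phospholipase A2 family, only Pla2g4b besides Pla2g4e passed the filter. Pla2g4b averaged 36.1 with the empty vector, 34.8 with RBPJ WT and 36.7 with the mutant and was called in 0 of the 4 comparisons by limma, edgeR or DESeq2 (0 at an unadjusted p under 0.05). Pla2g4d and Pla2g4f, which neighbour Pla2g4e, averaged 0.382 and 0.513 with the empty vector, next to 43.3 for Pla2g4e.

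Of 20 other phospholipase A2 and related genes, 9 were tested. In the comparison of RBPJ WT with the empty vector, which called 29 genes (0.248%), Pla2g12a was the only one of them. This gene of a secreted phospholipase A2 fell to 160 ± 15.6 with RBPJ WT from 230 ± 9.58 with the empty vector (SD, n = 3 each; log2 difference -0.49, SE 0.0865, limma adjusted p = 0.0456). With the mutant it averaged 225 ± 6.33, and its rise over RBPJ WT (log2 difference 0.45) passed with the block but not without it (limma adjusted p = 0.000373, in a fit that called 4.74% of genes, and 0.0631, in one that called 0.316%). Without the block DESeq2 called it (adjusted p = 0.00591) and edgeR did not (0.0622). The 3 highest of the list, Pnpla8, Pafah1b2 and Prdx6, were not called in any comparison. The median log2 difference of the 9 genes was 0.01 for RBPJ WT against empty vector, beside -0.01 over all genes tested.

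No call was made in the rescue table among genes that make, break down or sense N-acylethanolamines and related lipids. Of 12 tested, 0 were called in any of the 3 rescue comparisons by limma, edgeR or DESeq2, and 0 had an unadjusted p under 0.05. With the block limma again called 0, with at most 3 at an unadjusted p under 0.05. In the knockdown, Naaa, an acid hydrolase of N-acylethanolamines, rose with the hairpin to 348 ± 21.8 from 232 ± 37.8 (SD, n = 3 each; log2 difference 0.60, limma adjusted p = 0.048). With the block 5 of the 12 rose and 0 fell, beside 13.5% of all genes rising in that fit. The others were Faah, the main anandamide hydrolase (log2 difference 0.40), the cannabinoid receptor gene Cnr2 (0.63), the diacylglycerol lipase gene Daglb (0.81) and Abhd4 (0.32), whose enzyme acts on N-acyl-phosphatidylethanolamines. Their limma adjusted p without the block lay between 0.0571 and 0.112, and DESeq2 called Faah and Cnr2 besides Naaa. The median of the list was 0.23 against -0.01 over all genes.

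Of 26 genes for eicosanoid synthesis and signalling, 14 were tested in the rescue table and 11 in the knockdown table, and limma without the block, edgeR and DESeq2 called 0. At an unadjusted p under 0.05 limma gave 3 in the knockdown, 4 between RBPJ WT and empty vector, 0 between mutant and empty vector and 4 between mutant and RBPJ WT. With the block, Ptgds, a prostaglandin D synthase gene, rose with RBPJ WT against the empty vector, from 14.5 ± 5.08 to 32.0 ± 12.9 (log2 difference 1.05, limma adjusted p = 0.0264 with the block, which called 2.23% of genes, and 1 without). In the mutant against RBPJ WT comparison, 4 of 14 were called with the block, beside 4.74% of all genes, and 0 without it: Lpcat1 rose and Lpcat3, Ptgds and Ptgir fell. In the knockdown with the block, 2 of 11 were called, Ptgr1 upward and Mboat7 downward, in a fit that called 22.2% of all genes, so this count does not stand above the background. No gene of the list was among the 10 nearly silent genes.

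Among the ectoenzymes of the Art family, the remaining 4 genes, Art1, Art3, Art4 and Art5, averaged under 1 over the libraries of each table. Art2b was the only gene of the family besides Art2a-ps to pass the filter in the rescue table. It passed through its empty vector and mutant libraries alone, and its reads may be shared with Art2a-ps, which was chosen for these contrasts. Its log2 differences, 4.19 for mutant against RBPJ WT and -3.33 for RBPJ WT against empty vector, are therefore a description, with no test.

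Of 21 genes that make, use or sense extracellular NAD, ATP and adenosine, most were expressed: 15 averaged at least 10 in the rescue table and 16 in the knockdown table, while 5 and 3 averaged under 1. Of 15 tested in the rescue table and 16 in the knockdown table, limma without the block and edgeR called 0, while DESeq2 called Nmnat3 in the knockdown and Adora2a for RBPJ WT against empty vector. At an unadjusted p under 0.05 limma gave 3 in the knockdown, 2 between RBPJ WT and empty vector, 0 between mutant and empty vector and 1 between mutant and RBPJ WT. P2rx7, which encodes the channel that ADP-ribosyltransferase 2 modifies, averaged 961 ± 123 with the empty vector, 998 ± 133 with RBPJ WT and 903 ± 138 with the mutant. In the knockdown with the block it fell by 0.38 on the log2 scale (limma adjusted p = 0.00184), while Nmnat3, for NAD synthesis, and Nt5e, for the ectoenzyme that makes adenosine from AMP, rose. Those are 3 of 16 in a fit that called 22.2% of all genes, so this count does not stand above the background, and limma without the block called none of them (adjusted p = 0.14, 0.0778 and 0.232). The adenosine receptor gene Adora2a fell with RBPJ WT by 1.41 on the log2 scale in the fit with the block (limma adjusted p = 0.0014; 0.159 without it), from 34.9 ± 14.0 to 10.6 ± 1.87, and with the mutant it stood at 18.6 ± 4.17 (SD, n = 3 each). It was lower with RBPJ WT but not near 0.

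Of the myeloid markers, Itgam averaged 44.8 ± 19.0 with the empty vector, 12.7 ± 4.25 with RBPJ WT and 33 ± 10.4 with the mutant (limma adjusted p = 0.105 for RBPJ WT against empty vector; 5.17e-05 with the block). Fcgr3 and Lyz2 did not follow that order, with means of 92.4 and 24.0 with the empty vector, 87.7 and 21.8 with RBPJ WT and 71.5 and 18.0 with the mutant. Cd68, like Itgam, was lowest with RBPJ WT, at 118.5 against 135 with the empty vector and 160 with the mutant. Cd14 and Adgre1 averaged under 1 and Csf1r was low. With the block, limma called Cd68 and Itgam upward for mutant against RBPJ WT, in a fit that called 4.74% of genes. In the knockdown with the block it called Cd68 and Fcgr3 downward, in a fit that called 22.2% of genes. Without the block limma called none of the markers in these 2 comparisons. The summed value of the 7 myeloid markers present was 287.5 to 312 in the empty vector libraries, 235.5 to 264 with RBPJ WT and 275 to 309.5 with the mutant. In the knockdown it was 377 to 409 in scramble and 254 to 322 with the hairpin. That sum was lower with RBPJ WT than in the other rescue groups and lower with the hairpin than in scramble. The 2 experiments were normalized separately, so the sums are not compared across them. The part of these markers in the levels of the 2 genes was not tested.

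Leaving out Art2b, whose contrasts with RBPJ WT are a description, none of the tested genes around the 2 was called in a rescue comparison. This held for limma with or without the block, edgeR and DESeq2. In the RefSeq order of GRCm38.p6, Pla2g4e on chromosome 2 has Ehd4, Pla2g4b, Jmjd7, Gm28042 and Mir7665 on one side and Pla2g4d, Pla2g4f, Vps39, Tmem87a and Ganc on the other. Of these 10 neighbours 7 were tested, and 0 were called in any of the 3 rescue comparisons by limma with or without the block, edgeR or DESeq2, with 0 at an unadjusted p under 0.05 without the block. Their log2 differences between RBPJ WT and empty vector ran from -0.11 for Ehd4 to 0.09 for Jmjd7. In the knockdown, Ehd4 and Ganc rose in the fit with the block (limma adjusted p = 0.0301 and 0.00533; 0.243 and 0.0694 without it). That fit called 22.2% of all genes, 13.5% upward.

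Art2a-ps on chromosome 7 lies next to Art2b, followed by Clpb, Phox2a, Inppl1 and Folr2, with Mir139, Pde2a, Arap1, Stard10 and Atg16l2 on the other side. Of these, 8 were tested in the rescue table. The 7 other than Art2b had log2 differences between RBPJ WT and empty vector from -0.33 for Stard10 to 0.06 for Phox2a. At an unadjusted p under 0.05 without the block, 1 of the 7 was found, Stard10, for mutant against empty vector by limma, edgeR and DESeq2 (log2 difference -0.74, limma adjusted p = 1; 0.164 with the block). In the knockdown 7 of the 10 neighbours were tested and 0 were called by limma with or without the block, edgeR or DESeq2, with 0 at an unadjusted p under 0.05 without the block and 1 with it.

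**Figure D4:**
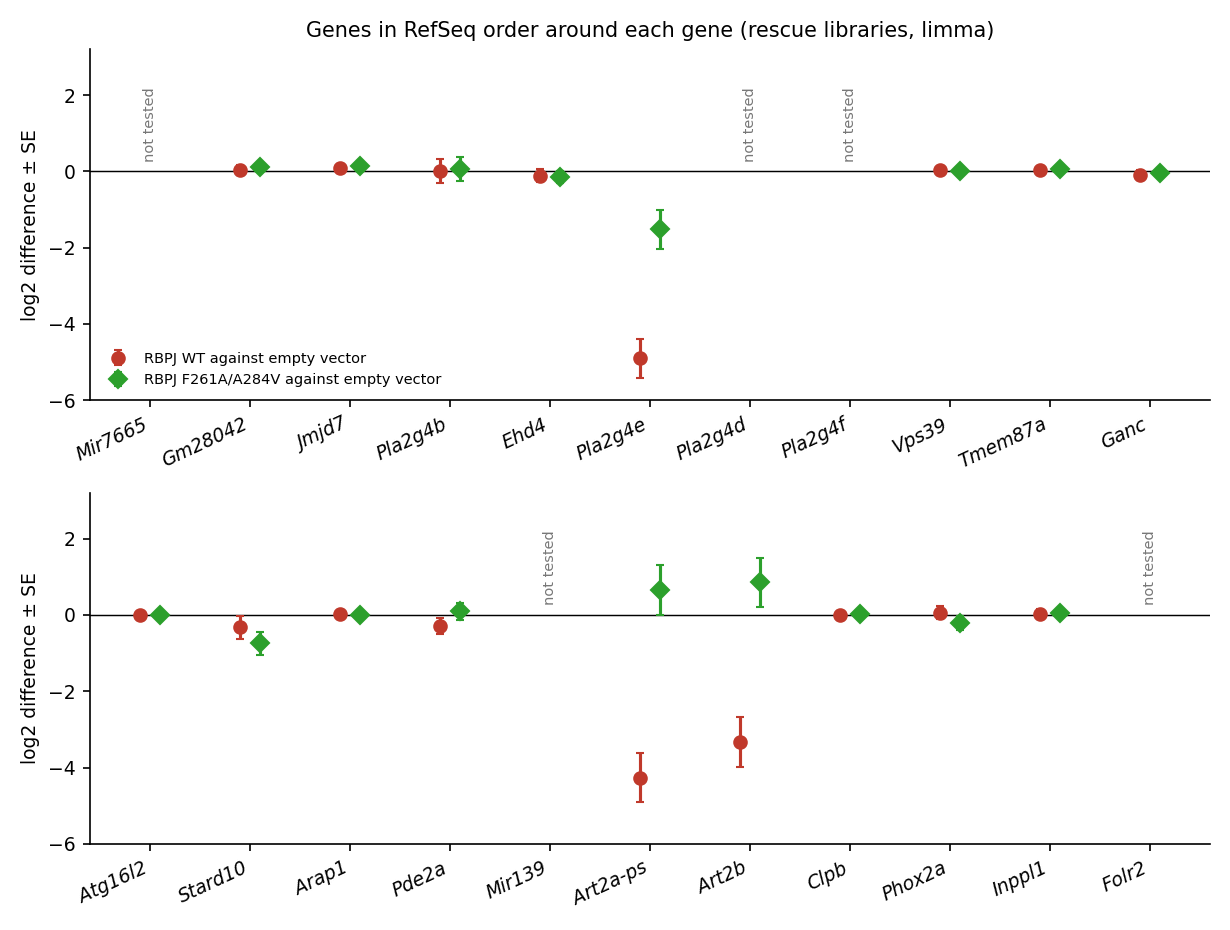
Log2 differences ± SE from limma over the 12 rescue libraries for Pla2g4e (top) and Art2a-ps (bottom) and the 5 RefSeq genes on each side, with RBPJ WT against empty vector as circles and the mutant against empty vector as diamonds. Pla2g4e, Art2a-ps and Art2b lie far below 0 with RBPJ WT, and the other tested neighbours lie between -0.33 and 0.09 in that comparison. For Pla2g4e and Art2a-ps the circles show the values that chose them, so their error bars are not a test. The error bar of the Art2b circle is not a test either, since its reads may be shared with Art2a-ps.

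The 250 bases before the RefSeq start of Pla2g4e and Art2b are shown because both genes lost nearly all their reads with a DNA-binding factor. Both lie on the minus strand of GRCm38.p6, Pla2g4e at chr2:120245336-120245585 and Art2b at chr7:101581162-101581411. Art2a-ps had no entry among the RefSeq promoters used, so its own window is not shown. The window of Art2b does not stand for it.
Pla2g4e: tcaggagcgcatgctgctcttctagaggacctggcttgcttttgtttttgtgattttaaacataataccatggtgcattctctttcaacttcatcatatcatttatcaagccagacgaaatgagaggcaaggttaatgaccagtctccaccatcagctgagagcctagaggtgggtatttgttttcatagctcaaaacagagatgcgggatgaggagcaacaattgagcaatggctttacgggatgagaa
Art2b: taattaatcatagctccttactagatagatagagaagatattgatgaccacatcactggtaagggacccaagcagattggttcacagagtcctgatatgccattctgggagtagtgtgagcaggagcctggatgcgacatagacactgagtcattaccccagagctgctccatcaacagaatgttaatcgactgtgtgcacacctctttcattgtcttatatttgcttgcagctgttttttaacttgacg
The core of the known RBPJ motif, TGGGAA or TTCCCA on the other strand, was found in neither window, which says only that these letters are not there. It was found in 7094 of 32851 such windows of RefSeq promoters (21.6%).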

How the data were processed

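Gene expression was sequenced in 18 libraries. The build mm9, DESeq2 1.24.0 and TopHat2 2.1.1 are named in the submitters' processing notes. Which counter and annotation were used, and whether strand was, is not stated in the sources read here. The deposited values are a signal: gene counts that the authors divided by 1 size factor per library, of which 100% came back as whole reads within 0.1 read. Each table, with 24391 genes, was normalized separately and tested alone.

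Genes with a value of at least 10 in at least 3 (knockdown) or 4 (rescue) libraries were tested on log2(value + 1) with limma-trend 3.58.1 in R 4.3.3, group as the only term and all 12 rescue libraries in 1 fit. A gene was called at an adjusted p under 0.05 (Benjamini-Hochberg, over every gene tested). A block for replicate number, a term for rescue replicates 1 and 2 against 3 and 4, edgeR 4.0.16, DESeq2 1.42.0, other pseudocounts, scaling, filters and left-out libraries were alternatives. The scripts were tested on simulated data.

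Deviations of same-numbered libraries from their group means correlated at 0.24 to 0.54 (knockdown) and 0.55 to 0.81 (rescue). The numbers come from the labels, and the block takes them to pair the libraries. Different-numbered ones ranged from -0.47 to 0.33 and from -0.76 to 0.83. The highest of these were mutant replicate 2 with empty vector replicate 1 (0.832) and L3MBTL3 shRNA replicate 1 with scramble replicate 2 (0.332). The correlations therefore separate the sets of replicates but do not settle pairing by single number, on which the fits with the block rest.

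The 2 genes and all lists were chosen with earlier results of these data known. Named by rule were: genes of each list called in any comparison or among its 3 highest, the 5 genes most like each gene, those at or just above 10% with RBPJ WT, and 5 neighbours on each side. Single genes picked out of these were chosen after their values were seen. Ratios of reads carry exact 95% intervals. Art2a-ps and Art2b transcripts (GENCODE M21) were aligned with Biopython 1.88. Gene order and promoters are from RefSeq, GRCm38.p6; no coordinates were converted.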

Additional observations from a re-analysis of the deposited data

Results flagged for a closer look

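Of 192 groups of 4 libraries examined, 7 held 1 library whose gap to its nearest neighbour exceeded Dixon's 95% critical value, where chance gives about 1 in 20. None of them was a group of Pla2g4e, Art2a-ps or Art2b. The libraries that stood apart were the highest or lowest of their 4. With the empty vector they were Gimap3 at 27.4, Gm28042 at 94.8 and Pafah1b2 at 993. With the mutant they were Cnr2 at 320, Jmjd7 at 94.1 and Nt5e at 428. With RBPJ WT it was Vps39 at 728.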

How the results depend on the processing

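Pla2g4e and Art2a-ps kept the sign of every rescue difference and of the Art2a-ps knockdown difference under all alternatives run. For Pla2g4e in the knockdown no alternative is given, since both groups lie under the floor of 3 reads, which is what depth limits here. The adjusted p of mutant against empty vector ranged from 0.0508 to 1 for Pla2g4e (log2 -1.66, adjusted p = 0.232, with near-identical libraries averaged and the batch term) and from 0.501 to 1 for Art2a-ps. Without 1 library at a time these differences ran from -1.85 to -1.15 and from 0.26 to 1.02. In the knockdown, leaving out 1 library moved the unpaired Art2a-ps difference from -3.16 (without L3MBTL3 shRNA replicate 3) to -0.54 (without scramble replicate 3), with no call. Art2a-ps was called with the replicate block (-1.75), and, chosen after seeing the data, without replicate 3 of both groups (-1.95 with or without the block) and with the block without replicate 1 (-1.74) or 2 (-1.56).

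The untested differences depended on the pseudocount. RBPJ WT minus empty vector was -5.6 and -3.07 for Pla2g4e with pseudocounts of 0.5 and 5, and -2.66 for Art2a-ps with 5. Mutant minus RBPJ WT was 1.81 and 3.25 with 5. Without 1 library they ran from -5.13 to -4.68 and from 3.05 to 3.75 for Pla2g4e, and from -4.64 to -3.94 and from 4.51 to 5.29 for Art2a-ps.

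Genes called are given as percentages of the genes tested. In the knockdown (385 genes, 3.32%; 256 up and 129 down) limma called 0.139% with no filter (34 of 24391), 7.85% with quantile scaling (533 up, 376 down) and 22.2% with the block (1566 up, 1009 down), and DESeq2 called 5.65%. Without replicate 3 of both groups it was 16.6%, or 27.4% with the block, and with the block 13.2% without replicate 1 and 19.9% without replicate 2. Leaving out 1 library gave 0 to 8.88%. It was 8.88% without scramble replicate 3 and 0.0432% without L3MBTL3 shRNA replicate 3. It was 0 by limma without L3MBTL3 shRNA replicate 1, scramble replicate 2 or L3MBTL3 shRNA replicate 2, with 1673, 2907 and 1891 genes at an unadjusted p under 0.05. Mutant against empty vector gave 0.0171% (2 genes), 0.0205% with no filter (5 of 24391), 0.0599% by DESeq2, 0.65% with the block, 0.693% with the batch term, 0.0941% with libraries averaged and the batch term, and 0.0171% to 0.0257% without 1 library. RBPJ WT against empty vector gave 0.248% (29 genes, 4 up and 25 down), 0.513% by DESeq2, 2.23% with the block (116 up, 145 down), 2.42% with the batch term, 1.52% with libraries averaged and the batch term, and 0.145% to 0.18% without 1 library, lower by over 1.5 times without any empty vector library or RBPJ WT replicate 1 or 3. Mutant against RBPJ WT gave 0.316% (37 genes, 27 up and 10 down), 0.667% by DESeq2, 4.74% with the block, 5.12% with the batch term, 1.96% with libraries averaged and the batch term, and 0.171% to 0.316% without 1 library, lower by over 1.5 times without RBPJ WT replicate 3 or mutant replicate 3 or 4. The causes were not tested.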
